A study of Drosophila melanogaster with 4 samples.

Results

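A stretch of 3L named for the fly's cell death activators W, grim, rpr and skl held 17 Cmi peaks, of 540 on 3L and 3110 in the whole list. Release 5 positions of these genes were not used here, so their place within it was not checked. The stretch runs on FlyBase release 5 from 18150000 to 18420000, a length of 270.001 kb. A peak was counted as a member when its midpoint fell between these bounds. The stretch was selected on position with the number, grouping, width and score of its Cmi peaks in this same list already known, so these values are given as a description, with no test. The peaks form 1 list with a position and a score for each, and have no value per library.

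The peaks come from ChIP-seq of Drosophila melanogaster embryos of the stage labelled 0 to 8 h, in which chromatin was precipitated with a polyclonal rabbit antibody against Cmi (2 libraries) with 2 further libraries of input DNA. Both groups have the strain Exd-GFP-13T, the genotype w; PBac{y[+]-attP-3B}VK00033 and a transgene of exd, which encodes a cofactor of Hox proteins, with GFP in place of its stop codon. The extraction protocol in the same labels instead describes a collection of 8 to 16 h from a y; bw cn sp stock, and the stage and strain fields were followed here. Whole embryos were used, so a peak cannot be assigned to a cell type. Library depth is unknown, and a stretch with no peak is not shown to lack Cmi.

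W encodes Hid (head involution defective), and Hid, Grim, Reaper (rpr) and Sickle (skl) are activators of programmed cell death. Each carries a short motif at its N-terminus that binds inhibitor of apoptosis proteins, chiefly Diap1, and so frees caspases to act. Fly cell death is controlled in part by transcription of these genes, and long intergenic stretches around them hold their control DNA. One known stretch, between grim and rpr, is needed for the death of neural stem cells, and another, upstream of rpr, for the response of young embryos to radiation. Cmi (Cara Mitad, CG5591, listed as Lpt in the Release 6 gene table) belongs to the Trithorax-related complex, an enhancer-bound methyltransferase of lysine 4 of histone H3.

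All 4 genes were found on 3L in the Release 6 table, 3 by symbol and W under the symbol hid. They stand there in the order hid (CG5123), grim (CG4345), rpr (CG4319) and skl (CG13701). The protein-coding genes CG7320, CheA75a, CG5103 and CG13700 and 5 long non-coding RNA genes start between hid and grim. Between grim and rpr start 2 long non-coding RNA genes and 1 antisense RNA gene, and no protein-coding gene. Between rpr and skl starts 1 long non-coding RNA gene. Release 6 is another build than that of the peaks, so the table gives order only and no peak was assigned to a gene. In Release 6 the 4 genes together span more than the length of the stretch, so with like spacing on release 5 the bounds would not hold all 4 in full.

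The peaks were crowded into the lower-numbered part of the stretch. Of the 17 peaks, 16 lay in the first 111.898 kb counted from the start of the first peak, which is 41.4% of the stretch, and 1 lay alone beyond a gap of 126.976 kb. At the core was a group of 9 peaks within 15.15 kb, 5.61% of the stretch, that held 53.1% of all covered bases. The other 8 peaks had no neighbour within 5 kb, midpoint to midpoint.

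**Figure D1:**
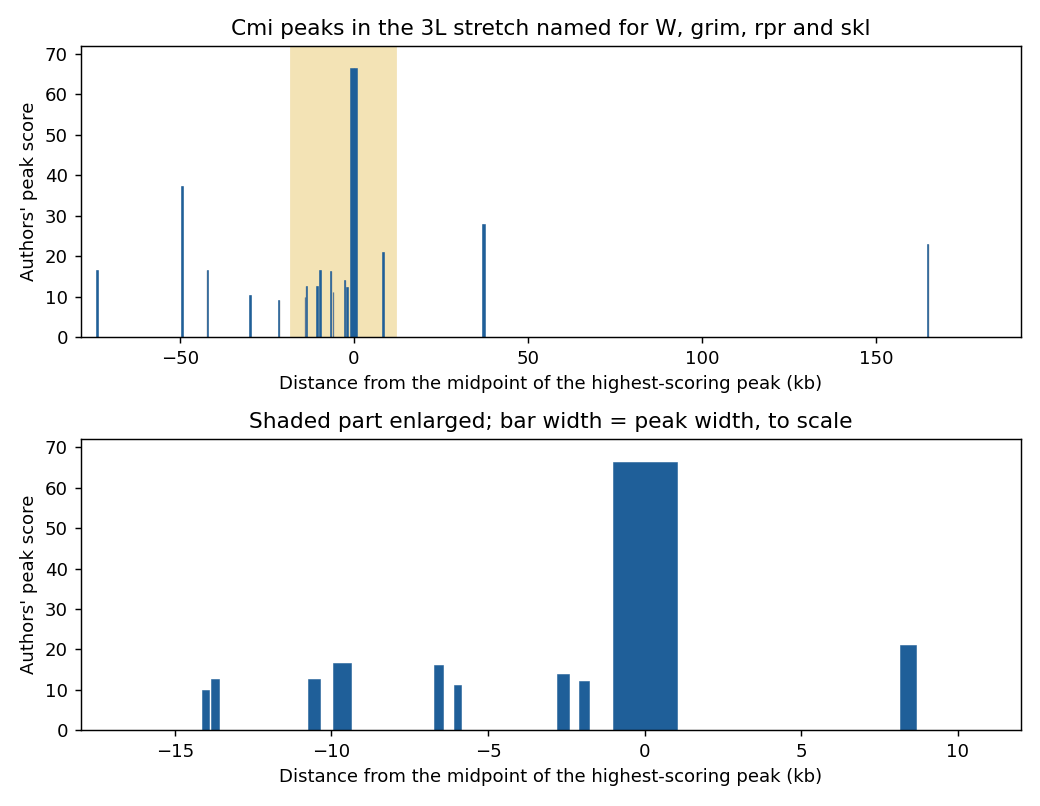
Cmi peaks of the stretch by distance from the midpoint of the highest peak (x, kb) and by the authors' score (y, no stated unit); the lower panel enlarges the shaded part, and each bar is as wide as its peak. A single tall, wide peak of score 66.45 stands at the higher-numbered end of a group of 9, and 1 peak stands alone 164.854 kb away.

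The group of 9 ran from 18214348 to 18229497 and covered 31.3% of that span. It had a repeated layout of pairs that closed with a triplet. The first pair lay at 18214348 to 18214562 (215 bp, score 9.94) and 18214631 to 18214902 (272 bp, 12.71), with 68 bp between the edges. The second pair lay at 18217732 to 18218113 (382 bp, 12.71) and 18218531 to 18219110 (580 bp, 16.66), 417 bp apart. The third lay at 18221752 to 18222045 (294 bp, 16.21) and 18222396 to 18222613 (218 bp, 11.09), 350 bp apart. Scores within the pairs thus stayed between 9.94 and 16.66.

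The triplet held the peak that stood out from all others of the stretch. Its first peaks were at 18225673 to 18226069 (397 bp, score 13.99) and 18226368 to 18226714 (347 bp, 12.30). The third, at 18227455 to 18229497, was 2043 bp wide with a score of 66.45, and was the only member over 1 kb. It ranked 9 of 540 on 3L by score and 9 by width. The next highest score of the stretch was 37.25 and the next widest peak 997 bp, and the peak of 2043 bp alone gave 22.9% of the covered bases. Without it the other 8 peaks of the group had a median score of 12.71 (9.94 to 16.66) and a median width of 320.5 bp (215 to 580 bp).

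Within the pairs and the triplet the gaps ran from 68 to 740 bp, and between them they were 2829, 2641 and 3059 bp. Cut at 2 kb, midpoint to midpoint, the group fell into these same sets of 2, 2, 2 and 3 peaks. The sets were read from the same positions, so this is no separate support for them. The highest peak joined the triplet at 1935 bp, just under the cut. After joining of peaks less than 1 kb apart, the group became 4 regions of 555, 1379, 862 and 3825 bp, and the 17 peaks of the stretch became 12 regions.

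The single peaks lay on both sides of the group. Below it were 5, of which the first lay at 18154274 to 18154879 (606 bp, score 16.66). The next, at 18178727 to 18179472 (746 bp), had the second highest score of the stretch, 37.25, and ranked 43 on 3L. It was followed by peaks at 18186239 to 18186518 (280 bp, 16.66), 18198488 to 18198867 (380 bp, 10.32) and 18206761 to 18207059 (299 bp, 9.19), the last of which had the lowest score of the 17. Scores below the group thus spanned the whole range found outside the highest peak of the stretch.

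Above the group were 3 single peaks, all with scores over the median of the whole list (15.75). The nearest was at 18236631 to 18237143 (513 bp, score 21.00). The next, at 18265175 to 18266171, was 997 bp wide, the second widest of the stretch, with a score of 27.89. The last, at 18393148 to 18393512 (365 bp, 23.05), lay 126.976 kb beyond it. Taken as a set, the 8 single peaks had a median score of 18.83 (9.19 to 37.25) and a median width of 446.5 bp (280 to 997 bp), beside 12.71 and 347 bp for all 9 peaks of the group. The ranges of scores and widths overlapped.

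The long empty interval, from 18266172 to 18393147, took 47.0% of the stretch. It ranked 61 of the 539 gaps of 3L, of which 11.3% were as long or longer. The next gaps of the stretch were 28.031 and 23.847 kb, and its median gap was 4.9125 kb, beside 8.223 kb over all of 3L. Empty intervals also bordered the stretch. No peak was called for 220.762 kb after its last peak, the gap of rank 20 on 3L, nor for 46.465 kb before its first.

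**Figure D2:**
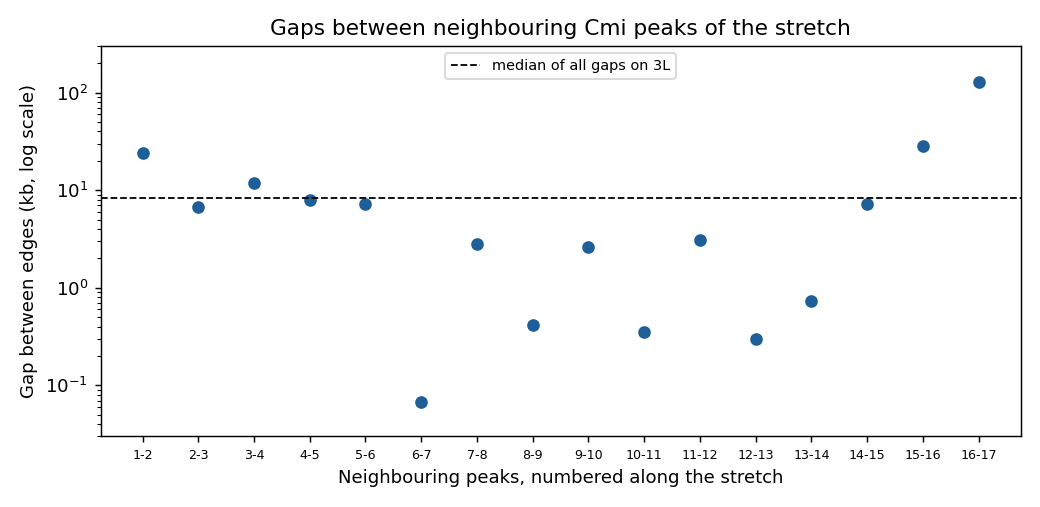
Gap between the edges of neighbouring peaks (y, kb on a log scale) for the 16 gaps of the stretch, with peaks numbered 1 to 17 along it (x); the dashed line is the median of all gaps on 3L, 8.223 kb. Gaps from peak 6 to peak 14 alternate between under 1 kb and near 3 kb, apart from the last, and the gap of 126.976 kb before peak 17 exceeds all others.

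The bounds did not cut through a group. The peak nearest below them, at 18107532 to 18107808 (277 bp, score 10.89), lay 42.33 kb outside, and the first member lay 4.5765 kb inside. The last member lay 26.67 kb inside the upper bound, and the next peak, at 18614275 to 18614950 (676 bp, 19.52), lay 194.613 kb outside.

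Set beside other stretches of the same length on 3L, the stretch was among the fuller ones. Stretches were laid every 10 kb over the part of 3L that holds peaks, and those overlapping the stretch itself were left out. The remaining 2352 held a median of 4 peaks (quartiles 2 and 8, at most 35), and 87 of them, 3.70%, held 17 or more. These 87 overlap one another and fall into 5 separate places. Of the 2352 stretches, 249 (10.6%) held no peak. End to end, without overlap, 3 of 88 stretches (3.41%) held 17 or more. Moving the bounds up by 50 kb left 13 peaks, a count that 9.91% of stretches reached, while moving them down by 50 kb kept 16 of the 17 and brought in 1 other (17 peaks, 3.49% of stretches).

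Cover gave a similar place in the order. Peaks covered 8.934 kb, or 3.31% of the stretch, beside a median of 0.938% (quartiles 0.413% and 1.64%, at most 10.0%) over the 2352 others. Of these, 125 (5.31%) were covered as much or more, and over stretches of 2L, 2R, 3L, 3R and X together 9.63% were. With the bounds moved up by 50 kb the cover was 2.56%, which 13.1% of stretches reached. The 2 neighbours of the same length differed from it in opposite ways. The next lower one held 22 peaks and had 4.48% of its bases covered, while the next higher one held 1 peak and had 0.25% covered.

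**Figure D3:**
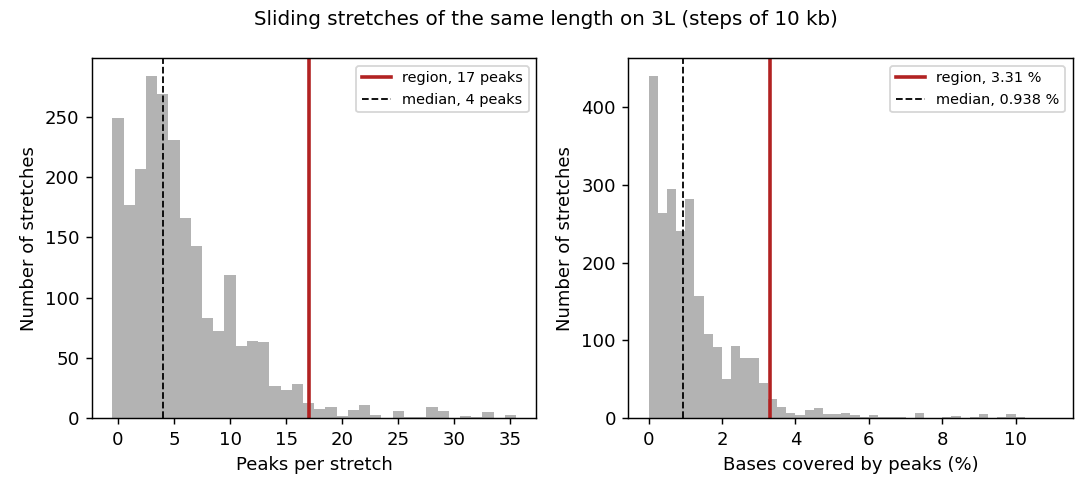
Number of peaks (left) and share of bases covered (right, %) in 2352 sliding stretches of 3L of the same length; y is the number of stretches, which overlap one another. The stretch named for the cell death genes (red line, 17 peaks and 3.31%) lies in the upper tail, well above the medians of 4 peaks and 0.938% (dashed), but below the fullest stretches of 35 peaks and 10.0%.

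Other stretches with a like number of peaks were crowded to a like degree. The most peaks in any 20 kb was 9, a number that 5.78% of all stretches reached. Among the 81 stretches with 15 to 19 peaks, the median was also 9 (4 to 12). Their longest gap had a median of 94.57 kb (38.782 to 153.113 kb), and 23 of the 81 had a gap as long as the 126.976 kb found here or longer. Cover among the 81 ran from 2.27% to 6.38% with a median of 3.41%, close to the 3.31% here. These 81 stretches come from 6 separate places.

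The share of high scores was near that elsewhere on 3L at the upper quartile of the list, and higher at the median. A score above the median of the list was found for 9 of 17 (52.9%), beside 40.2% of the 523 other peaks of 3L. A score above the upper quartile of the list (28.44) was found for 2 of 17 (11.8%), the peaks of score 66.45 and 37.25, beside 14.9% elsewhere on 3L. With only the peaks above that quartile, stretches were laid between the first and last such peak of 3L, which left 2144. Of these, 23.1% held 2 or more, so by count the stretch was no longer among the fullest. By cover 12.6% of the 2144 reached it, beside 5.31% of 2352 with all peaks.

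All 17 scores and widths lay between the lowest and the highest values of the other 3L peaks (6.78 to 90.53 and 201 to 4699 bp). The median score was 16.21 (95% interval of the median 12.30 to 21.00, n = 17 peaks), beside 14.05 (13.56 to 14.92, n = 523) on the rest of 3L. The median width was 380 bp (294 to 580 bp), beside 453 bp (416 to 476 bp). After joining of peaks within 1 kb the order of the widths turned, with 580.5 bp in the stretch and 538 bp elsewhere. The intervals treat peaks as independent, which neighbours need not be, and are given as a description only. A width over 1 kb was found for 1 of 17 (5.88%), beside 12.6% of the others, and 6 of 17 were 300 bp wide or less. The share of peaks with a neighbour within 5 kb was 52.9% (9 of 17, 95% Wilson interval 31.0 to 73.8), beside 62.3% (58.1 to 66.4) of the others. The order turned at other distances, with 52.9% beside 47.4% within 2 kb and 82.4% beside 71.5% within 10 kb.

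Width rose with score among the 17 peaks, as it did on the rest of 3L. Score and width come from the same caller and the same reads, so they are not independent measures. Pearson's r across the 17 peaks was 0.94, and 0.76 without the highest peak, with Spearman's rho of 0.73 and 0.67. Over the other 523 peaks r was 0.66 and rho 0.72. At scores below 20 the median width was 323 bp for 12 peaks of the stretch and 362 bp for 377 others. From 20 to 40 it was 629.5 bp (365 to 997 bp) for 4 peaks and 798 bp for 112 others. For the 15 other peaks with a score near that of the highest peak (53.16 to 79.74), the median width was 1401 bp (quartiles 1064.5 and 1730 bp), beside 2043 bp for the highest peak here.

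**Figure D4:**
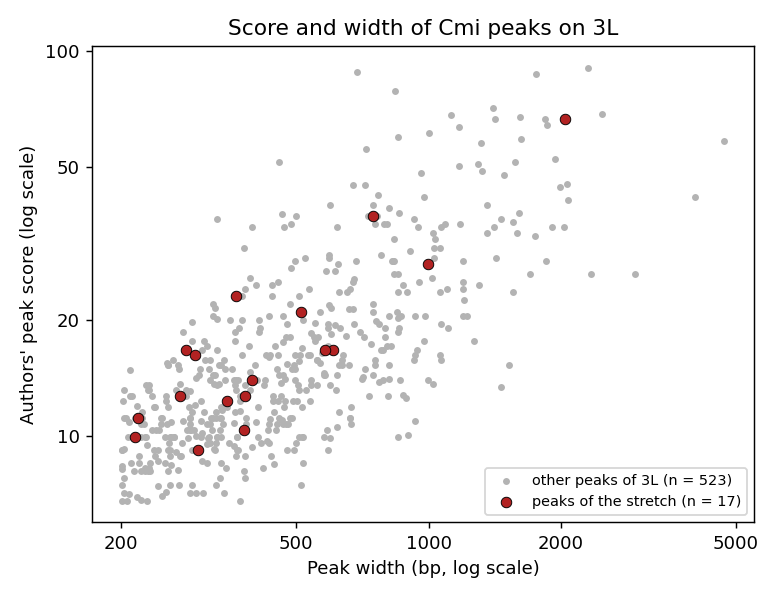
The authors' score (y, log scale) against peak width (x, bp, log scale) for the 17 peaks of the stretch (red) and the 523 other peaks of 3L (grey). The 17 lie within the cloud of the others, and the peak of 2043 bp and score 66.45 lies at its upper right.

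The scores repeat a limited set of values, which allows them to be read as heights. The 17 peaks had 14 distinct scores. A score of 16.66 was shared by 3 of them and by 36 peaks of the whole list, and 12.71 by 2 of them and by 59 of the list. Such values match −log10 of a Poisson probability for a whole number of reads against a background of 31.1 reads. Of the 17 scores, 16 fell on this series within 0.0061, or 94.1%, beside 75.5% of the other peaks of 3L. Every score of the stretch is shared by 5 or more peaks of the list, and the background was fitted to such shared values. The match of the 17 was thus largely built in, and these shares are not a like comparison. With a tolerance of 0.015 all 17 scores fell on the series, beside 80.3%. The score that missed at 0.0061 was the highest, 66.45, which was off by 0.0105. The greatest height given next thus rests on the wider tolerance. Read this way, the peaks of the stretch reached from 71 reads, 2.28 times the background, to 170 reads, 5.46 times the background, with a median of 88 reads (2.83 times). The second highest, of score 37.25, corresponds to 127 reads or 4.08 times, and the lone last peak to 102 reads or 3.28 times. These heights depend on the reading of the score and would each be 1 read lower if the probability were that of a greater height only.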

How the data were processed

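Cmi ChIP and input DNA were sequenced from 2 libraries each. The submitters' processing notes name BWA, MACS2, CASAVA (1.7.0.2 and 1.7.0.3) and the genome build BDGP5, without saying what each did. Per the file headers, the coordinates (1-based) are of FlyBase release 5 and the caller was MACS. The sources used here do not give thresholds or any pooling of replicates. The deposited score has no stated scale; it is the authors' own value and was compared only within this list. Its series was sought among 84 values shared by 5 or more peaks, with a Poisson background from 5 to 120 reads. A background of 31.1 matched 77 of them within 0.0061, and none over 1 read away matched more than 11.

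Counts use midpoints, and covered bases were clipped at the ends of a stretch. Wilson and median intervals (95%) cover counting error of peaks only. Every one of the 17 peaks is named. The members, lists, tolerances and alternatives were chosen with earlier results of these data known. The planned protein comparison and distances to genes were not run, because proteins and an annotation of release 5 were not used here. Python 3.11.15, pandas 2.3.3 and SciPy 1.17.1 were used, and the counting was tested on simulated data.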

Additional observations from a re-analysis of the deposited data

How the results depend on the processing

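Of 23 alternatives, 17 were counted as the same and 6 as moved. The measure was the 95% interval of the reported value, except for the longest gap, which had to be equal. The intervals rest on 17 peaks or 88 stretches, so staying within one is weak evidence of stability. The share of stretches with as many peaks or more, 3.70% as reported, became 23.1% with only the peaks above the upper quartile of the score and 9.91% with the bounds 50 kb higher. Shares for peaks above the upper quartile are over 2144 stretches, not 2352. The share covered as much or more, 5.31% as reported, became 13.1% with the bounds 50 kb higher, and 12.6% with only the peaks above the upper quartile, which is within its interval. The fall of the count from 17 to 13 under that move follows from leaving out the lower-numbered peaks; the cause of the other moves was not tested. The share of peaks with a neighbour, 52.9% as reported, became 82.4% within 10 kb (71.5% elsewhere on 3L), stayed at 52.9% within 2 kb (47.4%), and became 25% after joining within 1 kb (31.3%), so the order between the stretch and the rest of 3L turned at 2 and 10 kb. Joining raised the median width from 380 to 580.5 bp, and from 453 to 538 bp elsewhere on 3L, which turned their order. On 2L, 2R, 3L, 3R and X together, 5.37% of stretches held as many peaks and 9.63% were covered as much. Keeping stretches that overlap the region, an alternative added after seeing the data, gave 4.69% and 5.90%. The intervals of the stretch shares were taken for the 88 stretches that do not overlap. No paired analysis was possible because the peaks carry no values per library, and for the same reason no replicate was left out. The depth of the libraries is unknown.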
